A study of Mus musculus with 13 samples.

Results

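The genes described here are the ligands, receptors, inhibitors and feedback genes of the Wnt pathway, 49 genes taken by symbol from a list written for this purpose. Of these, 48 were named by at least 1 probe set of the array and are among the 18193 genes measured, each represented by its brightest probe set on average over the 13 arrays. The remaining gene, Tcf7, was not analysed here. The list was chosen by gene name and not by measured values, although earlier results of these data were known when it was written.

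The cells were prostate progenitor/stem cells of adult mice, cultured from 10 wk old animals of the genotype labelled wild-type B1/6; 127/SVEV and used at passage 22. At 70% confluency they received 100 nM 1,25-dihydroxyvitamin D3 (1,25D), the hormonal form of vitamin D, or the vehicle, 0.1% ethanol. The groups were 1,25D for 6 h (3 arrays), vehicle for 6 h (3), 1,25D for 48 h (4) and vehicle for 48 h (3), with medium renewed every 24 h in the longer treatment. All groups came from the same kind of cultured cell, no in vivo tissue was measured, and whether the replicates were grown separately is not stated in the labels. P-values therefore measure the spread between these arrays, which may be technical, and the number of arrays limits the precision.

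Wnt proteins are secreted ligands that bind Frizzled receptors together with the coreceptors Lrp5 and Lrp6. In the canonical branch, binding stops the destruction complex, which contains Axin1, from degrading beta-catenin (Ctnnb1), and beta-catenin then acts with TCF/LEF factors on target genes. Several targets, among them Axin2, Nkd1, Rnf43 and Znrf3, dampen the signal again, and secreted or membrane-bound inhibitors such as Wif1, the Dkk and Sfrp proteins and Apcdd1 act outside the cell or at its surface. In the prostate, Wnt signalling is known for its part in epithelial budding and in progenitor cell growth.

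Signals are the authors' deposited log2 values, so a difference of 1 is a 2-fold difference, and they ran from 3.05 to 14.45. No detection calls were used, so whether a dim gene was detected is not known: 11 of the 48 genes had a mean in the lowest 40% of probe sets, 4 of them ligands and 4 of them inhibitors. A change is called here at an adjusted p under 0.05 (limma, Benjamini-Hochberg over all 45037 probe sets), and rose, fell, higher and lower are used of calls. The arrays separated first by time, and vehicle 6 h replicate 1 and 1,25D 48 h replicate 4 stood apart from the rest, with the narrowest signal ranges (interquartile ranges of 3.03 and 2.95, against 3.27 to 3.46 elsewhere). For the genes called with 1,25D among the 48, and for some others, results are also given without them.

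Markers of the labelled cell type were bright: Krt5, Krt14, Trp63, Itga6, Krt8, Krt18 and Epcam averaged 9.01 or more, and the least bright of the 6 basal or progenitor and 6 luminal markers measured, Psca, averaged 7.99. Of the 6 luminal markers, 3 were called with 1,25D at 48 h and 1 at 6 h. At 48 h Krt8 (-0.43, adjusted p = 0.000158), Krt18 (-0.34, adjusted p = 0.000503) and Cldn3 (-0.47, adjusted p = 0.00985) were lower, and the summed luminal signal was 37500 to 38700 in 1,25D and 48400 to 50000 in vehicle. At 6 h only Cldn4 was called (1.53 higher, adjusted p = 5.76e-05). The other luminal markers were not called at 6 h and ran from -0.14 (Krt8) to 0.30 (Cldn3). The summed luminal signal at 6 h, which includes Cldn4, was 40700 to 42500 in 1,25D and 38700 to 40500 in vehicle. None of the 6 basal or progenitor markers was called with 1,25D. Of 10 fibroblast and smooth muscle markers none was called in any comparison, and their summed linear signal was 396 to 548 in 1,25D and 420 to 482 in vehicle at 48 h, and 403 to 423 in 1,25D and 377 to 495 in vehicle at 6 h. The 5 endothelial and 5 neuroendocrine or nerve markers had no call either. Among 6 leukocyte markers measured, Cd68 was higher with 1,25D at 48 h (log2 difference 1.23), whereas the leukocyte marker Ptprc averaged 4.13, in the lowest 40% of probe sets. The summed leukocyte signal was 5410 to 5580 in 1,25D and 5680 to 5900 in vehicle at 48 h, and 2770 to 3010 in 1,25D and 2410 to 3070 in vehicle at 6 h. This sum mostly reflects Cd14, which averaged 11.89, whereas the next brightest marker, Cd3e, averaged 6.88. Cd14 itself was not called with 1,25D (-0.12 at 48 h). Because it rests mostly on 1 gene, the sum is not taken here as a measure of leukocyte content, which was not tested. The part of these markers and cells in the results below was not tested, and in such bulk samples fewer cells of a type and less RNA per cell cannot be told apart.

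With 1,25D, 5 Wnt genes changed at 1 time or the other. Apcdd1 rose at 6 h, Wif1 and Wnt4 rose at 48 h, and Fzd7 and Nkd2 fell at 48 h. At 6 h this was 1 of 48 genes (2.08%), where 0.852% of all genes were called (0.687% higher and 0.165% lower). At 48 h it was 4 of 48 (8.33%), where 2.39% of all genes were called (1.43% higher and 0.951% lower). The arrays of 1,25D and vehicle did not overlap for 9 of the 48 at 6 h (18.8%, against 10.2% of all genes) and for 11 at 48 h (22.9%, against 12.6%). Over the 48 genes the median log2 difference was -0.0417 at 6 h and 0.00884 at 48 h, against -0.0203 and -0.00239 over all genes, so the median gene of the list lay near 0.

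**Figure D1:**
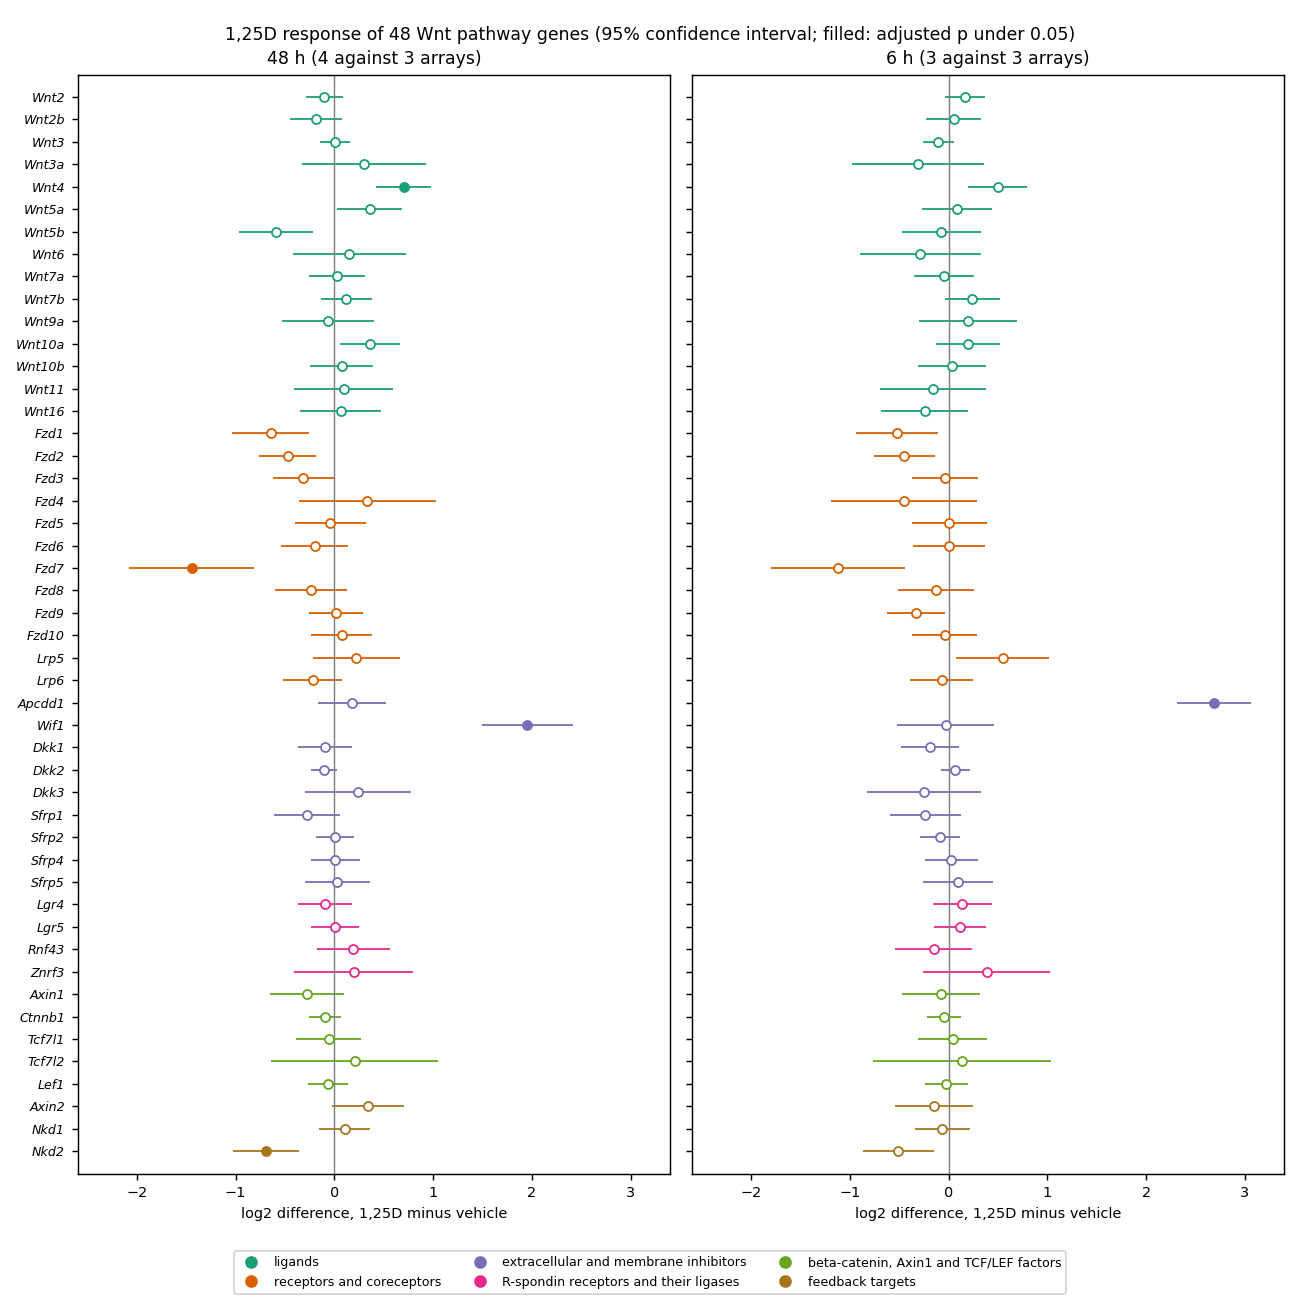
The log2 difference of 1,25D minus vehicle for each of the 48 genes, at 48 h (left) and 6 h (right), ordered and coloured by role, with 95% confidence intervals from the limma fit and filled points for calls. Apcdd1 stands alone at 6 h with 2.69, and at 48 h the filled points are Wif1, Wnt4, Fzd7 and Nkd2.

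Promoter sequence is shown for Wif1, Wnt4, Fzd7 and Nkd2, the 4 genes called at 48 h, to show what lies before the start of genes that moved; each had 1 promoter window in the RefSeq table. Each line holds the 120 bases before the annotated start on the gene's own strand, 5′ to 3′, from RefSeq, build GRCm38.p6, with CG dinucleotides in capitals. Wif1 lies at chr10:121033884-121034003 on the plus strand, Wnt4 at chr4:137277515-137277634 on the plus strand, Fzd7 at chr1:59482027-59482146 on the plus strand and Nkd2 at chr13:73847632-73847751 on the minus strand.
Wif1: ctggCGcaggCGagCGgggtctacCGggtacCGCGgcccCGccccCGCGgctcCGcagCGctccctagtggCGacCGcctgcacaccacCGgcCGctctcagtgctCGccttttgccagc
Wnt4: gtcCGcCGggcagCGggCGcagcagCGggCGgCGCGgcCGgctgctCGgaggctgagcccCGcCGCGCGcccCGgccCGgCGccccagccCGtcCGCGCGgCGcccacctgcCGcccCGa
Fzd7: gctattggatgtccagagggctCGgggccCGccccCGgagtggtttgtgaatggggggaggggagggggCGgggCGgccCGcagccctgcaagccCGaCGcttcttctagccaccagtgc
Nkd2: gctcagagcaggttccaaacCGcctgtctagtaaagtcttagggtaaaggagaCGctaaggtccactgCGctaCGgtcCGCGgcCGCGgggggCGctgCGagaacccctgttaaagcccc
These stretches hold 16 CG dinucleotides for Wif1, 24 for Wnt4, 8 for Fzd7 and 10 for Nkd2. In the whole windows, from 250 bases before to 50 after the start, Wif1 has 25 CG dinucleotides, Wnt4 51, Fzd7 24 and Nkd2 26, against a median of 7 over 32851 windows of the same length. So all 4 starts lie in CG-rich sequence, and Wnt4 most of all, above 99.3% of windows. This is not particular to the called genes. Among listed genes without a 1,25D call, the windows of Wnt9a and Fzd9 lay above 99.9% and 99.5% of windows. Others were less CG-rich, such as Nkd1, above 43.6%.

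Both strands of these windows were searched for the TCF/LEF letters CTTTGA followed by A or T, which occur in 8.65% of all windows, and for 3 hexamers of vitamin D response elements, which are AGGTCA, the variant GGTTCA and the further variant AGTTCA. A hexamer occurs in 35.0% of all windows, and a pair of them in the same direction with 3 bases between in 0.0244%. None of these words of letters was found in the windows of Wif1, Wnt4, Fzd7 or Nkd2. Apcdd1, the gene called at 6 h, had no window among those read, so its promoter was not searched. Of 43 windows that belong to 33 of the 49 listed genes, 3 held the TCF/LEF letters and 11 a hexamer. These matches describe letters near the start only.

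Among the ligands, Wnt4 was called. Wnt4, a ligand that can signal through canonical and noncanonical branches, had log2 signals of 8.01, 7.83, 8.18 and 7.73 with 1,25D at 48 h, against 7.16, 7.30 and 7.25 in vehicle. At 6 h it had 7.68, 7.82 and 7.79 with 1,25D, against 7.39, 7.27 and 7.15 in vehicle. The treated arrays were all above the vehicle arrays, at both times. The difference was 0.70 at 48 h (SE 0.131, 1.63-fold, adjusted p = 0.014) and 0.50 at 6 h (SE 0.14, adjusted p = 0.254), not a call at 6 h, and the responses differed by 0.21 between the times (95% interval -0.21 to 0.62, adjusted p = 0.985). A dimmer probe set of Wnt4, with a mean of 5.81, showed 0.0591 at 48 h (adjusted p = 1), so the call rests on 1 of 2 probe sets, and the mean of both gave 0.38 (adjusted p = 0.0583). Dropping any 1 of the 3 vehicle 48 h arrays, or either of replicates 1 and 3 of 1,25D 48 h, ended the call (adjusted p up to 0.0881), and so did fitting the 48 h groups alone (adjusted p = 0.0593). It was called with the arrays that stand apart left out (0.77, adjusted p = 0.00325).

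None of the other 14 ligands passed the test with 1,25D at 48 h, where their differences ran from -0.59 to 0.36, nor did any of the 15 at 6 h, where they ran from -0.31 to 0.50. The widest at 48 h belonged to Wnt5b, a mostly noncanonical ligand, with 7.67, 7.83, 7.60 and 7.21 in 1,25D, against 8.37, 7.94 and 8.19 in vehicle. Its treated arrays were all below its vehicle arrays, and the difference was -0.59 (SE 0.174, adjusted p = 0.19). Wnt7b, an epithelial canonical ligand, averaged 10.24 ± 0.105 with 1,25D (SD, n = 4) and 10.12 ± 0.166 in vehicle (SD, n = 3) at 48 h, and 10.49 ± 0.224 with 1,25D and 10.25 ± 0.14 in vehicle at 6 h (SD, n = 3 each), and its groups overlapped at both times. The probe sets of Wnt7a differed at 48 h. The set used, with a mean of 7.37, showed 0.0229, and a set with a mean of 7.07 showed 0.576 (adjusted p = 0.104). A dim set, with a mean of 4.20, showed -0.102. Wnt2, Wnt2b, Wnt3 and Wnt5a were the ligands in the lowest 40% of probe sets. Wnt2b was listed at the same 4.87 on all 3 vehicle 6 h arrays, so its spread there is not an estimate of replicate error.

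**Figure D2:**
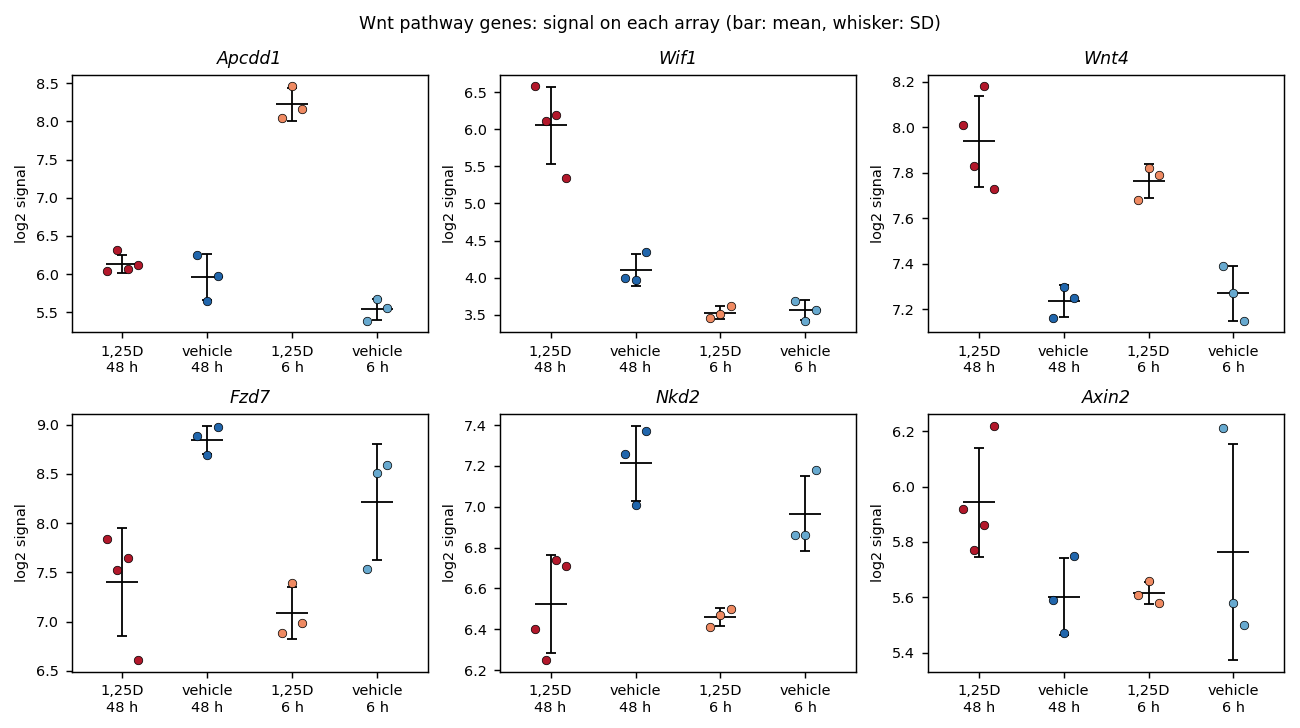
Log2 signal on each array for the 5 genes called with 1,25D and for Axin2, with the mean as a bar and the SD as whiskers (4 arrays for 1,25D 48 h and 3 for each other group). Apcdd1 is high on the 1,25D 6 h arrays alone (8.05 to 8.46), Wif1 on the 1,25D 48 h arrays alone (5.34 to 6.58), and Fzd7 and Nkd2 are lower with 1,25D at 48 h without overlap.

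Among receptors and coreceptors, Fzd7 fell at 48 h. Fzd7, a Frizzled receptor known from stem and progenitor cells of several epithelia, had 7.84, 7.52, 7.64 and 6.61 with 1,25D at 48 h, against 8.88, 8.69 and 8.97 in vehicle. At 6 h it had 6.88, 7.39 and 6.99 with 1,25D, against 7.53, 8.51 and 8.59 in vehicle. The groups did not overlap at either time, and the arrays that stand apart (1,25D 48 h replicate 4 and vehicle 6 h replicate 1) gave the lowest value of their groups. The difference was -1.44 at 48 h (SE 0.294, adjusted p = 0.0251), that is 0.368 of the vehicle signal, and -1.12 at 6 h (SE 0.314, adjusted p = 0.246). Without those 2 arrays it was -1.18 at 48 h (adjusted p = 0.000537) and -1.47 at 6 h (adjusted p = 0.000625), so that Fzd7 was then called at both times.

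The 48 h call of Fzd7 was lost on dropping any 1 of the 3 vehicle 48 h arrays or replicate 2 of 1,25D 48 h (adjusted p up to 0.132). At 6 h leaving out vehicle 6 h replicate 1 alone gave a call (-1.47, adjusted p = 0.0395). The second probe set of Fzd7, with a mean of 5.65, showed -0.054 at 48 h and -0.297 at 6 h and was not called (adjusted p = 1 and 0.952), and the mean of both sets gave -0.75 at 48 h, still a call. The responses at 48 h and 6 h differed by -0.32 (95% interval -1.25 to 0.61, adjusted p = 0.985), which does not separate them.

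The related receptors Fzd1 and Fzd2 had lower means with 1,25D at both times without being called. Fzd1 had 8.94, 8.73, 8.70 and 8.30 with 1,25D at 48 h, against 9.27, 9.29 and 9.38 in vehicle, a difference of -0.65 (SE 0.181, adjusted p = 0.152). Fzd2 had 8.28, 8.09, 8.35 and 8.06 with 1,25D at 48 h, against 8.60, 8.58 and 8.82 in vehicle, a difference of -0.47 (SE 0.135, adjusted p = 0.162). In both genes all treated arrays were below all vehicle arrays at 48 h. At 6 h the differences were -0.53 for Fzd1 (adjusted p = 0.607) and -0.45 for Fzd2 (adjusted p = 0.423). Without the arrays that stand apart Fzd1 was called at 6 h (-0.73, adjusted p = 0.0309).

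The other Frizzled genes and the coreceptors did not pass the test at either time. Lrp5 had a difference of 0.55 at 6 h (SE 0.219, adjusted p = 0.706) and 0.22 at 48 h, and Lrp6 had -0.22 at 48 h. Over the 12 receptors and coreceptors the median log2 difference was -0.21 at 48 h and -0.101 at 6 h, against -0.00239 and -0.0203 over all genes. Of these 12, 8 lay below 0 at 48 h and 9 at 6 h, with 1 call in all. Several of these lay close to 0, such as Fzd5 at 48 h (-0.04) and Fzd3 and Fzd10 at 6 h (-0.04 each). The share of all genes below 0 is not given here.

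Among the inhibitors, Apcdd1 and Wif1 rose at different times. Apcdd1, a membrane glycoprotein that binds Wnt and Lrp5 and inhibits the pathway, had 8.05, 8.46 and 8.16 with 1,25D at 6 h, against 5.39, 5.67 and 5.55 in vehicle. At 48 h it had 6.04, 6.31, 6.07 and 6.12 with 1,25D, against 6.25, 5.65 and 5.97 in vehicle. The 6 h groups were far apart and the 48 h groups overlapped. The difference was 2.69 at 6 h (SE 0.172, 6.44-fold, adjusted p = 2.97e-06) and 0.18 at 48 h (95% interval -0.17 to 0.53, adjusted p = 1). The response at 48 h minus that at 6 h was -2.51 (SE 0.236, adjusted p = 0.000181), in a comparison that called 0.632% of all genes (0.346% higher and 0.286% lower) and 2 of the 48 (4.17%), so the rise was smaller at 48 h by more than the replicate spread. Both calls held without each array in turn, and also with the 2 arrays that stand apart removed (2.61 at 6 h, adjusted p = 1.16e-05). With the mean over its probe sets, Apcdd1 was higher by 1.29 at 6 h, and the responses differed by -1.17.

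Apcdd1 was measured by 6 probe sets, of which 4 were called higher at 6 h, by 2.69, 2.09, 1.51 and 1.02. The other 2 showed 0.464 (adjusted p = 0.198) and -0.00223 (adjusted p = 0.998), and the last of these had the lowest mean of the 6, 3.79. The set used for the gene and the next one carry the array maker's x mark, given to sets whose probes can match other transcripts, whereas the sets at 1.51 and 1.02 carry no such mark. None of the 6 was called at 48 h, where they ran from 0.0123 to 0.193.

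**Figure D3:**
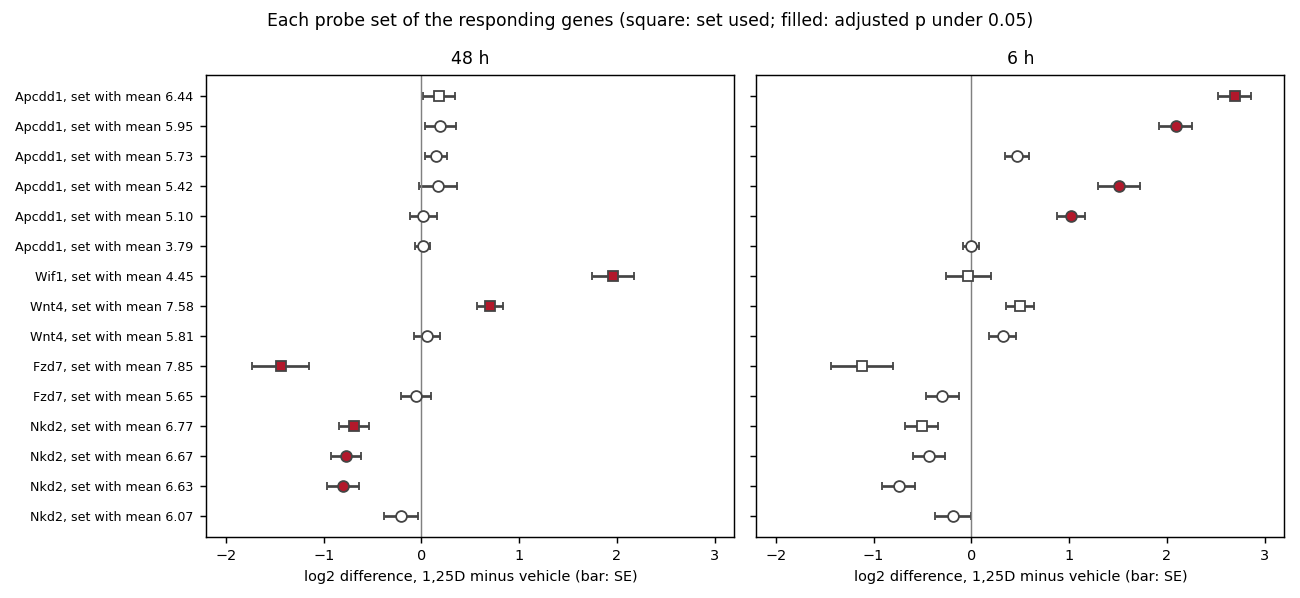
The log2 difference of 1,25D minus vehicle at 48 h (left) and 6 h (right) for every probe set of Apcdd1, Wif1, Wnt4, Fzd7 and Nkd2, with the SE as bars, squares for the set that represents the gene and red fill for calls. Of the 6 Apcdd1 sets 4 are red at 6 h and none at 48 h, and 3 of the 4 Nkd2 sets are red at 48 h.

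Wif1, a secreted protein that binds Wnt ligands, had 6.58, 6.11, 6.19 and 5.34 with 1,25D at 48 h, against 3.99, 3.97 and 4.35 in vehicle. At 6 h it had 3.46, 3.51 and 3.62 with 1,25D, against 3.69, 3.42 and 3.57 in vehicle. All 4 treated arrays at 48 h were above every other array, and the 6 h groups overlapped. The difference was 1.96 at 48 h (SE 0.213, 3.88-fold, adjusted p = 0.000152) and -0.03 at 6 h (95% interval -0.52 to 0.46, adjusted p = 0.992). Its mean was in the lowest 40% of probe sets, where a fold may be understated. In vehicle its 48 h arrays were all above its 6 h arrays, by 0.54 (adjusted p = 0.177), not a call. That change with time was called with only the groups compared, with array quality weights and with the replicate block. It was also called without the arrays that stand apart and without 1,25D 48 h replicate 4 alone.

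The response of Wif1 at 48 h minus that at 6 h was 1.99 (SE 0.312, adjusted p = 0.0118). Dropping replicate 1 of 1,25D 6 h ended that call (adjusted p = 0.051), and dropping any other array did not. The rise at 48 h was called without each array in turn, and without the arrays that stand apart it was 2.19 (adjusted p = 4.17e-07). Wif1 had 1 probe set. So the inhibitors with a call showed opposite timing: Apcdd1 was high at the early time alone and Wif1 at the late time alone, each by the test of the difference between times.

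The other 7 inhibitors, Dkk1, Dkk2, Dkk3, Sfrp1, Sfrp2, Sfrp4 and Sfrp5, were not called with 1,25D. Dkk proteins block the coreceptors Lrp5 and Lrp6 (Dkk3 is an atypical member), and Sfrp proteins bind Wnt ligands. Their differences ran from -0.278 to 0.238 at 48 h, and from -0.249 to 0.096 at 6 h. Sfrp1 averaged 9.41 ± 0.111 with 1,25D (SD, n = 4) and 9.69 ± 0.211 in vehicle (SD, n = 3) at 48 h, a difference of -0.28 (adjusted p = 0.911). Its 5 probe sets ran from -0.432 to -0.0116 at 48 h and from -0.443 to 0.618 at 6 h, without a call. With time in vehicle the set used showed 0.45 (adjusted p = 0.113). Sets with means of 7.73 and 7.77 were called higher with time, by 1.01 (adjusted p = 0.00157) and 1.73 (adjusted p = 0.0139). Dkk1, Dkk2 and Sfrp2 were in the lowest 40% of probe sets.

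Among feedback genes, Nkd2 fell at 48 h. Nkd2, which binds Dishevelled and dampens Wnt signalling, had 6.40, 6.25, 6.74 and 6.71 with 1,25D at 48 h, against 7.26, 7.01 and 7.37 in vehicle. At 6 h it had 6.41, 6.47 and 6.50 with 1,25D, against 6.86, 6.86 and 7.18 in vehicle. All treated arrays were below all vehicle arrays at both times. The difference was -0.69 at 48 h (SE 0.155, adjusted p = 0.046) and -0.51 at 6 h (SE 0.166, adjusted p = 0.443).

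Of the 4 probe sets of Nkd2, 3 were called lower at 48 h, by -0.691, -0.77 and -0.804, and the fourth showed -0.213. Nkd2 lay close to the threshold, and the set used for the gene lost its call on dropping any 1 of the 3 vehicle 48 h arrays, any 1 of the 3 arrays of 1,25D 6 h, the second vehicle 6 h array, or any of the first 3 arrays of 1,25D 48 h (adjusted p up to 0.265). It was not called after quantile normalization or when the 48 h groups alone were fitted, and it was called with both outlying arrays left out (-0.75, adjusted p = 0.0181).

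Axin2, a scaffold of the destruction complex and the most used readout of canonical signalling, was singled out for that role after its values had been seen. It had 5.92, 5.77, 5.86 and 6.22 with 1,25D at 48 h, against 5.59, 5.47 and 5.75 in vehicle. At 6 h it had 5.61, 5.66 and 5.58 with 1,25D, against 6.21, 5.58 and 5.50 in vehicle. The 48 h groups were apart by a narrow margin, and the 6 h groups overlapped. The highest values, 6.22 with 1,25D at 48 h and 6.21 in vehicle at 6 h, came from the arrays that stand apart. The differences without those arrays are not given here, so their sizes, and the sign at 6 h, are uncertain. The difference of 0.34 at 48 h (95% interval -0.03 to 0.71, adjusted p = 0.81) and of -0.15 at 6 h (adjusted p = 0.971) did not pass the test. A dimmer probe set of Axin2, with a mean of 4.73, showed -0.0813 at 48 h and -0.203 at 6 h, neither a call. The 2 sets thus differ in sign at 48 h. Nkd1, a relative of Nkd2, showed 0.105 at 48 h and -0.0633 at 6 h.

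Beta-catenin, Axin1, Tcf7l1, Tcf7l2 and Lef1 were not called with 1,25D, and neither were the R-spondin receptors Lgr4 and Lgr5 or the ligases Rnf43 and Znrf3, which remove Frizzled receptors from the surface. Differences in the first group ran from -0.276 to 0.204 at 48 h and from -0.0775 to 0.136 at 6 h. In the second they ran from -0.0934 to 0.197 at 48 h and from -0.153 to 0.386 at 6 h. Ctnnb1, whose protein is controlled mainly by its breakdown, averaged 12.98 ± 0.0687 with 1,25D (SD, n = 4) and 13.08 ± 0.061 in vehicle (SD, n = 3) at 48 h. Its difference at 48 h had a 95% interval of -0.26 to 0.06, and its other 2 probe sets showed -0.189 (SE 0.35) and -0.198 (SE 0.168), which leave room for larger changes. Lef1, Lgr5 and Rnf43 were in the lowest 40% of probe sets.

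Axin1 and Ctnnb1 had the smallest p-values of the first of these groups, and Znrf3 and Rnf43 those of the second. Axin1 had 8.71, 8.69, 8.75 and 8.26 with 1,25D at 48 h, against 8.69, 8.84 and 9.10 in vehicle, a difference of -0.28 (SE 0.172, adjusted p = 0.996). Ctnnb1 had 12.99, 13.04, 12.88 and 13.01 with 1,25D at 48 h, against 13.15, 13.04 and 13.04 in vehicle, a difference of -0.10 (SE 0.0742, adjusted p = 1). The treated and vehicle arrays of both genes overlapped or touched. Znrf3 had 6.87, 7.11 and 7.72 with 1,25D at 6 h, against 6.54, 6.72 and 7.28 in vehicle, a difference of 0.39 (SE 0.3, adjusted p = 0.971). Rnf43 had 4.67, 4.47, 5.04 and 5.20 with 1,25D at 48 h, against 4.61, 4.68 and 4.67 in vehicle, a difference of 0.19 (SE 0.171, adjusted p = 1). Both ligases had overlapping groups.

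Time in culture without hormone changed 5 of the 48 genes (10.4%), where 18.6% of all genes were called (9.84% higher and 8.75% lower), and the vehicle groups did not overlap for 7 of them (14.6%, against 31% of all genes). The labels name no batch, so time and anything else that differed between the 48 h and 6 h samples cannot be told apart. Markers moved in the same comparison: Trp63 (1.14), Psca (2.36), Krt18 (0.30), Epcam (0.36), Cldn3 (0.69), Cldn4 (1.78), Cd68 (1.02) and Cd14 (1.13) were higher in vehicle at 48 h, and Cd44 (-0.45) was lower. Their part in the results that follow was not tested. Wnt5b had 8.37, 7.94 and 8.19 in vehicle at 48 h, against 6.71, 6.92 and 7.27 in vehicle at 6 h, a rise of 1.20 (SE 0.186, adjusted p = 0.000582). Lgr4, a receptor of R-spondins, had 9.95, 10.06 and 10.01 at 48 h, against 9.10, 9.43 and 9.52 at 6 h, a rise of 0.65 (SE 0.137, adjusted p = 0.00532). In both genes the later arrays were all above the earlier ones. Both calls held without each array in turn, and both Wnt5b probe sets were called (1.20 and 0.867), whereas the second Lgr4 set, with a mean of 4.19, showed -0.262 (adjusted p = 0.337) and the mean of both Lgr4 sets was not called (0.20, adjusted p = 0.222).

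Fzd1 had 9.27, 9.29 and 9.38 in vehicle at 48 h, against 8.17, 8.94 and 8.62 in vehicle at 6 h, a rise of 0.74 (SE 0.194, adjusted p = 0.0214). Ctnnb1 had 13.15, 13.04 and 13.04 at 48 h, against 12.75, 12.87 and 12.83 at 6 h, a rise of 0.26 (SE 0.0793, adjusted p = 0.0475). Fzd9 fell, with 5.97, 5.99 and 5.82 at 48 h against 6.22, 6.51 and 6.45 at 6 h, a difference of -0.47 (SE 0.136, adjusted p = 0.038). None of these groups overlapped, yet all 3 calls depended on single arrays. Fzd1 lost its call on dropping vehicle 6 h replicate 1 or any 1 of the 3 vehicle 48 h arrays (adjusted p up to 0.0785), Fzd9 on dropping 9 of the 13 arrays, each in turn (adjusted p up to 0.152), and Ctnnb1 on dropping 10 of them (adjusted p up to 0.18). Without the arrays that stand apart Ctnnb1 was not called (0.23, adjusted p = 0.128), and Fzd1 and Fzd9 were. The other 2 probe sets of Ctnnb1 showed 1.21 (adjusted p = 0.0504) and 0.709 (adjusted p = 0.0178) with time, and the mean over its 3 sets was higher by 0.73 (adjusted p = 0.0143), so the size of its rise depends on the probe set. The arrays concerned for Fzd9 were vehicle 6 h replicates 2 and 3, 1,25D 6 h replicates 1 and 2, vehicle 48 h replicates 1, 2 and 3 and 1,25D 48 h replicates 1 and 3. For Ctnnb1 they were all vehicle arrays and all 1,25D 48 h arrays.

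**Figure D4:**
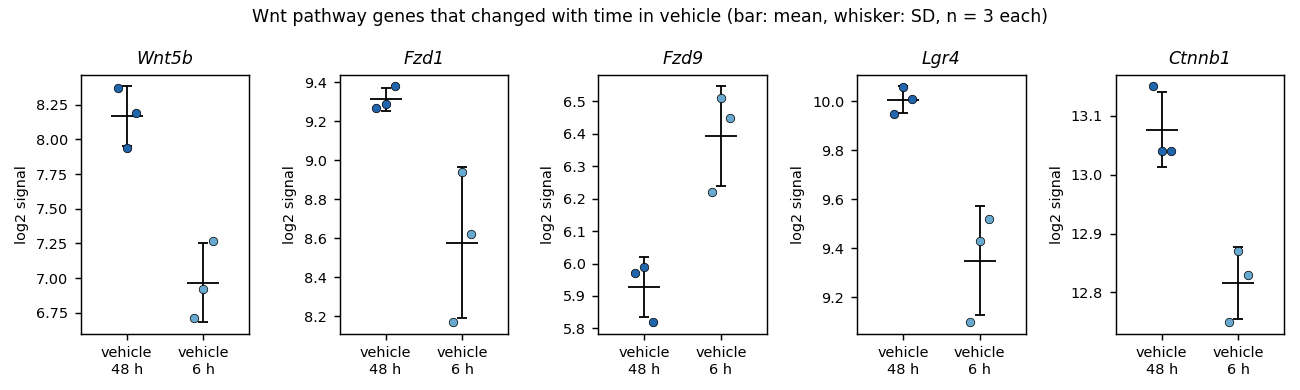
Log2 signal on each array of vehicle 48 h (left in each panel) and vehicle 6 h (right) for the 5 genes called with time, with the mean as a bar and the SD as whiskers (n = 3 each). Wnt5b, Fzd1, Lgr4 and Ctnnb1 are higher at 48 h and Fzd9 is lower, and no panel shows overlap; each panel has its own signal axis.

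The genes that rose with time in vehicle and those that moved with 1,25D can be set side by side, although the comparisons share the vehicle 48 h arrays. Wnt5b and Fzd1 were 1.20 and 0.74 higher with time, and with 1,25D at 48 h they showed -0.59 and -0.65 without a call. Fzd7 showed 0.64 with time (adjusted p = 0.271) and -1.44 with 1,25D at 48 h, and Nkd2 0.25 (uncalled) and -0.69. Opposite changes of this kind were not general. Lgr4 and Ctnnb1 rose with time by 0.65 and 0.26 and showed only -0.09 and -0.10 with 1,25D at 48 h. Wif1 had the same sign in both, with 0.54 (uncalled) and 1.96, as did Apcdd1, with 0.42 and 0.18 (both uncalled). Wnt4 showed -0.03 with time and 0.70 with 1,25D. Because a low or high vehicle 48 h array moves a gene's time and 1,25D values in opposite directions, their signs are not independent.

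Beyond these genes, 93 further genes of the pathway were listed by role, and 91 were measured. With 1,25D at 6 h, 0 rose and 2 fell, and at 48 h, 1 rose and 1 fell, or 2.2% at each time, against 0.852% of all genes at 6 h and 2.39% at 48 h, so that the 48 h share was near that of all genes. All 4 belong to the commonly used transcriptional targets, of which 23 were measured. At 6 h the transcription factor gene Myc had 10.03, 10.10 and 10.23 with 1,25D, against 10.59, 10.88 and 10.68 in vehicle (-0.60, SE 0.103, adjusted p = 0.0124). Jag1, a Notch ligand, ranged between 7.67 and 8.09 with 1,25D, against 8.76 to 9.25 in vehicle (-1.07, SE 0.172, adjusted p = 0.00726). Both were lower at 6 h on every treated array.

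At 48 h the cyclin gene Ccnd1 had 12.83, 12.77, 12.92 and 12.84 with 1,25D, against 12.15, 12.48 and 12.50 in vehicle (0.46, SE 0.0804, adjusted p = 0.00876). Edn1, which encodes the peptide endothelin, had 9.08, 9.24, 9.08 and 8.84 with 1,25D, against 9.90, 9.77 and 9.84 in vehicle (-0.78, SE 0.129, adjusted p = 0.00595). These genes also answer to other pathways. The call of Myc was lost on dropping vehicle 6 h replicate 2 or either of replicates 1 and 2 of 1,25D 6 h (adjusted p up to 0.0915), and that of Jag1 on dropping replicate 1 of 1,25D 6 h (adjusted p = 0.0543). Both were lost when the 6 h groups alone were fitted (adjusted p = 0.205 and 0.0943). At 48 h the count over the 91 genes was 7 without the arrays that stand apart and 5 without vehicle 6 h replicate 1, against 2 with all arrays. The share of all genes called in those 2 fits is not given here, so whether these counts exceed it cannot be told.

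No gene of the other 5 groups was called with 1,25D: secretion factors, noncanonical receptors and R-spondins (15 measured), other extracellular inhibitors (11), destruction complex and Dishevelled (17), nuclear cofactors (11), and planar polarity (14). Closest to the threshold was Dact2, which binds Dishevelled, with -0.66 at 48 h (adjusted p = 0.0552) and -0.71 at 6 h (adjusted p = 0.0955). The noncanonical receptor gene Ror1 showed -0.38 at 48 h and 1.31 at 6 h (SE 0.367, adjusted p = 0.245 at 6 h). Its vehicle 6 h arrays were widely spread, at 5.62 to 7.16 (SD 0.864), against 7.84 to 8.09 with 1,25D. The size of the 6 h difference therefore depends on the lowest vehicle array, and the value without it is not given here. In vehicle, 17 of the 91 genes changed with time (18.7%), 12 higher and 5 lower, at a share near the 18.6% of all genes. Among them Prickle1, a planar polarity gene, was higher by 2.08 (adjusted p = 0.000332) and Wls, the carrier that secretes Wnt proteins, by 0.91 (adjusted p = 0.000448).

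**Figure D5:**
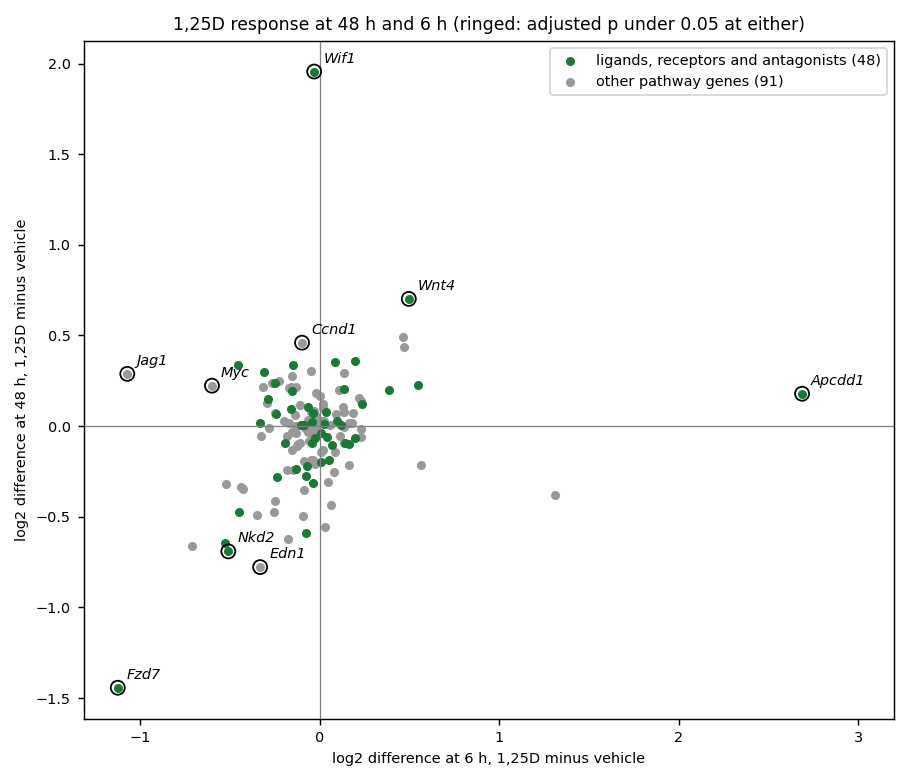
The log2 difference of 1,25D minus vehicle at 6 h (horizontal) against that at 48 h (vertical), for the 48 genes (green) and 91 other pathway genes (grey), with rings and names for genes called at either time. Apcdd1 lies far to the right near 0 on the vertical axis, Wif1 lies high near 0 on the horizontal axis, and Fzd7 lies lowest at the left (-1.44 at 48 h, -1.12 at 6 h).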

How the data were processed

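RNA (5 ug of total RNA per sample) was hybridised to Affymetrix mouse arrays, 1 per sample. The deposited values are on a log2 scale; per the submitters' processing notes MAS5 was used, while how the signals were corrected and scaled is not given in the sources used here. The values were used as given. Of 45101 probe sets, 64 control sets were left out; of the other 45037, 34945 had 1 gene symbol, 932 several and 9160 none in the platform annotation given for the table. A linear model with 1 mean per group was fitted to the 13 arrays together using limma 3.58.1 (R 4.3.3; eBayes with an intensity trend, two-sided), without the replicate number as a block, and 95% intervals use the moderated spread. Scripts were tested on simulated data. Values per array are given for each of the 48 genes called in any comparison and, in each role without a call with 1,25D, for the 2 with the smallest p; other pathway genes are named when called with 1,25D. Further names were chosen after the values were seen. The genes and lists were chosen with earlier results of these data known. Promoters were read from the RefSeq tables (Python 3.11.15); figures used matplotlib 3.10.9. Alternatives were quantile normalization, an offset of 16, no intensity trend, leaving out the dimmest 40% of probe sets, the compared groups alone, array quality weights, the replicate block, the mean over a gene's probe sets, and leaving out arrays.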

Additional observations from a re-analysis of the deposited data

Results flagged for a closer look

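The response to 1,25D at 48 h minus that at 6 h passed the test for Apcdd1 (-2.51) and Wif1 (1.99), in opposite directions. Among the other pathway genes it passed for Myc (0.82, SE 0.141, adjusted p = 0.0217) and Jag1 (1.36, SE 0.235, adjusted p = 0.0228). Both were lower with 1,25D at 6 h and showed 0.22 and 0.29, uncalled, at 48 h. In the 1,25D 48 h group, Fzd9 had 6.00, 6.02, 6.02 and 5.75; the gap below the others made up 0.923 of the range, beyond Dixon's 95% limit for 4 samples. The low array was replicate 4, which also stands apart over all probe sets, and about 1 in 20 groups would show such a gap by chance.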

How the results depend on the processing

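At 6 h the call of Apcdd1, and at 48 h the call of Wif1, held under every alternative in which the gene was tested; Wif1 was not tested without the dimmest 40% of probe sets. At 6 h the count of Wnt genes called was 1, but 2 with array quality weights and 2 with the mean over a gene's probe sets (Fzd7 added), and 3 without the 2 arrays that stand apart (Fzd7 and Fzd1 added); leaving out each array in turn gave 1 to 2. At 48 h the count was 4, but 2 with only the groups compared, where a fit of 7 arrays has fewer degrees of freedom. It was 7 with array quality weights (Wnt5b, Fzd1 and Fzd2 added, all lower). Leaving out each array in turn gave 1 to 4. The share of all genes called under each alternative is not given here, so the counts of Wnt genes cannot be weighed against it. For the difference between responses the count was 2, but 1 without the dimmest 40% of probe sets, and 1 to 2 without each array in turn. With time in vehicle it was 5, but 4 with no intensity trend and with only the groups compared, 6 with array quality weights, 6 with the mean over probe sets (Wnt7a lower and Sfrp1 higher added, Lgr4 lost) and 6 without the 2 arrays, and 2 to 5 without each array in turn. The dimmer of the brightest 2 Wnt7a sets was lower with time by itself (-1.14, adjusted p = 0.000268), unlike the set used (-0.03). Of 16 named calls under 22 alternatives, 287 of 348 values kept the call, 61 lost it and 0 changed sign. The cause of the lost calls was not tested. The replicate numbers did not pair the arrays throughout: 7 of 18 same-numbered pairs correlated above 0.1 in their deviations from group means, and 4 of 13 arrays correlated best with their own number. Same-numbered arrays of vehicle and 1,25D gave 0.277, 0.222 and 0.0692 at 6 h, and -0.00941, -0.534 and 0.386 at 48 h. With so few arrays per group, pairing within a time cannot be told from these values. With the replicate block, 1, 4, 2 and 5 genes were called at 6 h, at 48 h, for the difference and with time, and with time Wif1 was called in place of Ctnnb1. Without detection calls, changes of dim genes may be missed or understated.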
